A study of Mus musculus with 6 samples.

Results

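The 9 genes described are organizers of the neuromuscular junction and acetylcholinesterase: Musk, Rapsn, Dok7, Lrp4, Colq, Ache, Etv5, Erbb2 and Erbb3. They were taken by name, using every probe set that the platform annotation assigns to exactly 1 of these symbols, and all 9 were measured, by 13 of the 34958 probe sets with a single symbol. These 9 stand among 18194 named genes. In the RefSeq table Rapsn and Lrp4 lie on chromosome 2, Musk on 4, Dok7 and Ache on 5, Erbb3 on 10, Erbb2 on 11, Colq on 14 and Etv5 on 16. RNA came from quadriceps of C57/Bl6 mice aged 2 months, hybridised to 1 Affymetrix array per sample. In the 3 knockout samples a skeletal α actin cre transgene was combined with floxed Pofut1 alleles. The 3 control samples carried that transgene too, but with Pofut1 wild type. The actin promoter is active in muscle fibres, so the floxed gene was targeted there. The labels do not say whether the samples of a group were separate animals, and p-values then measure only the spread between these samples.

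At the junction the motor nerve terminal releases agrin, which binds the receptor Lrp4 on the fibre and activates the kinase MuSK. MuSK works with the adaptor Dok7, and its signal leads rapsyn, the product of Rapsn, to cluster acetylcholine receptors. Acetylcholinesterase, encoded by Ache, ends transmission and is tethered in the synaptic cleft by the collagen tail that Colq encodes. Neuregulins act on the receptors ErbB2 and ErbB3, and the transcription factor Etv5 acts in the expression of synaptic genes. In muscle many of these transcripts come mostly from the few nuclei under the nerve terminal. Agrin and Lrp4 both contain EGF-like repeats, the kind of domain on which Pofut1 places O-linked fucose. The series compared muscle with and without deletion of Pofut1, and the junction transcripts are described within that comparison.

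The array labelled control replicate 3 stood apart and decides much of what follows. Its log2 values correlated with those of the other arrays at 0.940 to 0.945, whereas the other 5 correlated with each other at 0.980 to 0.991. Its 3' over 5' signal ratio for Gapdh, a measure of RNA and cDNA integrity, was 10.5, that of knockout replicate 2 was 3.70, and the other 4 arrays had 1.73 to 1.97. Pofut1 itself was read at the brightest of its 3 probe sets, and the others are not described here. It read 220.1, 231.1 and 194.3 in the knockout arrays, against 301.4 and 379.8 in control replicates 1 and 2. In the array labelled control replicate 3 it read 90.6. That last value was the lowest of all and ran against its label. No source used here says whether that probe set lies in the deleted part, and outside it a probe set need not show the deletion. All 12 fibre markers, such as Acta1 and Ckm, were bright, with mean intensities of 5438 to 12350. Of these 12, 11 had higher means in the knockout, with a median log2 fold change of 0.10 and 0 past the threshold. Leaving out the array labelled control replicate 3 gave 9 of 12 higher and a median of 0.08. Fold changes of members and lists are therefore given with and without that array.

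No member passed the test of knockout against control, and each 95% interval of the fold change included 0, over all arrays and without the array labelled control replicate 3. In limma, with Benjamini-Hochberg adjustment over all 18194 genes, 0 members passed, and 0% of all genes passed. At an unadjusted p under 0.05 limma also gave 0 members, against 2.58% of all genes. Over all 6 arrays 6 members had lower and 3 had higher means in the knockout, with a median log2 fold change of -0.19. Over all genes 53.7% were lower, with a median of -0.01. Without the array labelled control replicate 3, 8 of the 9 were lower and Erbb3 was higher, with a median of -0.16, again with 0 past the threshold. With arrays weighted by their quality, limma gave 2 members, Rapsn and Musk, lower at an unadjusted p under 0.05, against 6.74% of all genes, and 0 past the threshold. Among all genes 52% were lower in the comparison without that array, and 62.9% of those above background. Background here is the 95th percentile of the mean levels of 37 genes restricted to other tissues, an intensity of 57.8, and 8 of the 9 members had means above it. In whole tissue a smaller share of a cell type and less RNA per cell cannot be told apart.

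**Figure D1:**
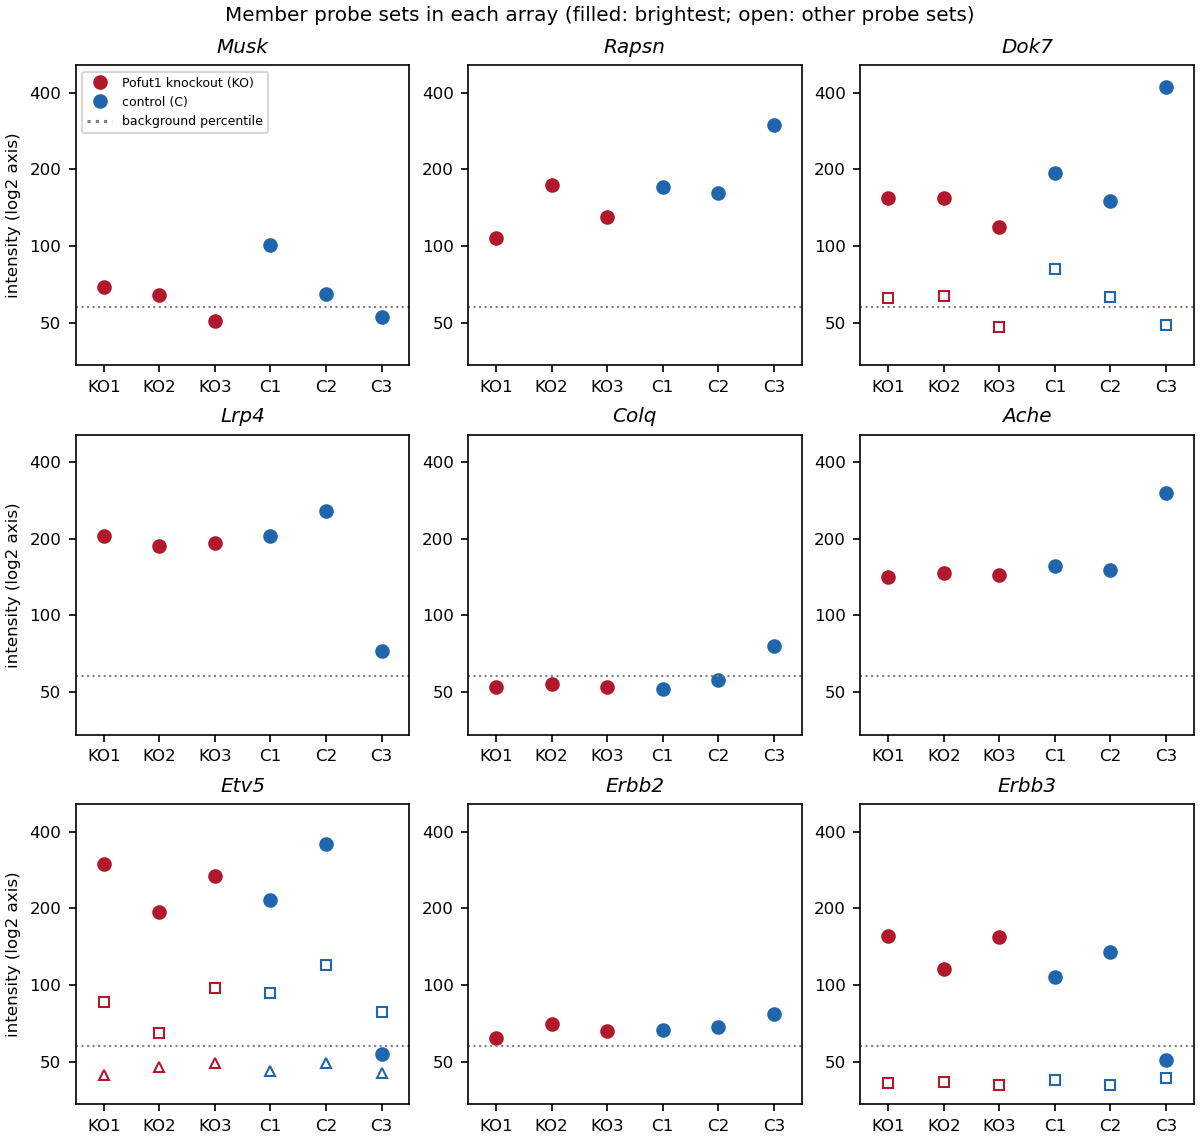
Intensity on a log2 axis of the 13 member probe sets in 3 Pofut1 knockout arrays (red, left) and 3 control arrays (blue, right), with filled points for the brightest probe set of a gene, open points for others, and a dotted line at the background intensity of 57.8. In the array labelled control replicate 3, shown as C3, Lrp4, Etv5 and Erbb3 are the lowest of their rows of filled points and Rapsn, Dok7, Ache, Colq and Erbb2 the highest.

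Lrp4 (probe set 1426288_at), the agrin receptor, had a level that varied little among knockout arrays and widely among controls. It read 205.5, 188.0 and 193.2 in knockout replicates 1 to 3. In the control group it read 205.1 and 257.3 in replicates 1 and 2, and 72.7 in the array labelled control replicate 3. The ranges overlapped, and the lowest and the highest value both belonged to controls. Lrp4 had a log2 fold change of 0.32 ± 0.46 (SE, n = 3 each; limma adjusted p = 0.971). With the array labelled control replicate 3 left out it was -0.23 ± 0.17 (limma adjusted p = 0.811), so its sign rests on that array.

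Musk (1450511_at), which encodes the receptor kinase at the centre of the pathway, was dim. It read 69.1, 64.4 and 50.5 in the knockout arrays, against 100.8, 64.8 and 52.7 in the arrays labelled control replicates 1, 2 and 3. Only 4 of the 6 values were above background, and control replicate 1 alone stood above the knockout range. Musk had a log2 fold change of -0.20 ± 0.25 (SE; limma adjusted p = 0.971, exact permutation p = 0.6), where 3 against 3 arrays cannot give an exact p under 0.1. Without the array labelled control replicate 3 it was -0.41 ± 0.23, and its 95% interval ran from -0.96 to 0.14 (limma adjusted p = 0.802). Without control replicate 1 it was 0.06. RefSeq's table for build GRCm38.p6 has the Musk promoter, from 250 bases before the transcription start to 50 after it, at chr4:58285712-58286011 on the plus strand. It is shown because muscle regulatory factors act on synaptic genes through E-boxes, the motif CANNTG, which is searched on both strands at once since it reads the same on each. Capitals mark its 3 E-boxes, which begin 177, 100 and 68 bases before the start.
Musk: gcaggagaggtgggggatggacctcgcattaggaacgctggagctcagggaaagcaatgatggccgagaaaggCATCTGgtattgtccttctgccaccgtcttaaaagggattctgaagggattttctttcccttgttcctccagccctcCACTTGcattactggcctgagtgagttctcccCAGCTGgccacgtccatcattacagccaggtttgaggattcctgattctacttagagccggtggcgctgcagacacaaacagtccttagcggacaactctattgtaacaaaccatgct
Of all 32851 promoters of that length in the table, 72.3% held at least 1 E-box and 17.6% held 3 or more. A match is a description of the letters, not a measured binding site.

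Dok7, the adaptor that activates MuSK from inside the fibre, was measured by a pair of probe sets that disagreed on the array labelled control replicate 3. The brighter, 1434812_s_at, read 154.1, 154.4 and 118.9 in the knockout arrays. In controls it read 193.6 and 149.4 in replicates 1 and 2, and 421.7 in the array labelled control replicate 3, the highest of all. The dimmer, 1442869_at, read 62.5, 63.8 and 47.9 in the knockout arrays, against 81.2, 63.0 and 48.8 in the arrays labelled control replicates 1, 2 and 3. Knockout replicate 3 was thus the lowest array on both probe sets, and control replicate 1 was above all knockout arrays on both. For the brighter the log2 fold change was -0.70 ± 0.40 (SE; limma adjusted p = 0.971), and -0.27 ± 0.21 with the array labelled control replicate 3 left out (limma adjusted p = 0.813). In the fit of all 45101 probe sets the dimmer had -0.13 ± 0.22 over all arrays and -0.31 ± 0.18 without that array, with limma adjusted p of 0.988 and 0.861.

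Rapsn (1449331_a_at), the scaffold under the receptors, had its lowest values in knockout arrays. It read 106.9, 173.2 and 129.9 in knockout replicates 1 to 3. Controls read 170.5, 160.9 and 298.7, the last in the array labelled control replicate 3. Knockout replicates 1 and 3 lay below every control, and knockout replicate 2, with the second highest Gapdh ratio, lay among them. The log2 fold change was -0.59 ± 0.32 (SE; limma adjusted p = 0.971, exact permutation p = 0.3). It was -0.31 ± 0.24 with the array labelled control replicate 3 left out (limma adjusted p = 0.811). With both high-ratio arrays left out, a comparison chosen after seeing the data, it was -0.49 ± 0.18. The unadjusted limma p was then 0.0431, as was the case for 4.72% of genes in the same direction (p under 0.05), and the adjusted p was 0.663.

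Ache (1422635_at), the enzyme that breaks down acetylcholine, was the only member whose groups did not overlap. It read 141.4, 146.2 and 144.2 in the knockout arrays. Controls read 155.8 and 150.8 in replicates 1 and 2, and 301.2 in the array labelled control replicate 3. Every knockout value lay below every control value, but the gap between 146.2 and 150.8 was narrow. Of all genes 9.01% had no overlap and 5.68% had none with the knockout lower, so 1 of 9 members is near the background. Leaving out an array cannot undo this order, so the same order without the array labelled control replicate 3 adds nothing. In that comparison 14.2% of all genes had no overlap with the knockout lower. Ache had a log2 fold change of -0.42 ± 0.31 (SE; limma adjusted p = 0.971, exact permutation p = 0.1, the smallest these arrays allow). Without the array labelled control replicate 3 it was -0.09 ± 0.15, a 1.07-fold difference, with a 95% interval of -0.46 to 0.28 (limma adjusted p = 0.892).

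Colq (1448081_at), the collagen tail of the enzyme, was at or below background. It read 52.4, 53.8 and 52.4 in the knockout arrays and 51.2 and 55.9 in control replicates 1 and 2. Only the array labelled control replicate 3, at 75.7, was above the background percentile. The log2 fold change was -0.19 ± 0.15 with it and -0.02 ± 0.06 without it (SE; limma adjusted p = 0.971 and 0.943). A difference in Colq was not detectable at this signal.

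The neuregulin receptors act as a pair. Erbb2 (1424919_at), the partner that carries kinase activity, was close to background in all arrays. It read 61.8, 70.2 and 65.8 in the knockout arrays, against 66.7, 68.6 and 76.8 in the arrays labelled control replicates 1, 2 and 3, and the ranges overlapped. Its log2 fold change was -0.10 ± 0.13 (SE; limma adjusted p = 0.971), with a 95% interval of -0.40 to 0.20. Leaving out the array labelled control replicate 3 gave -0.04 ± 0.10 (limma adjusted p = 0.932). Erbb3, the partner that binds neuregulin, read 155.2, 115.1 and 154.2 in the knockout arrays at its brighter probe set, 1434606_at. Controls read 106.9 and 135.1 in replicates 1 and 2, and 50.5 in the array labelled control replicate 3, which was below background. Knockout replicates 1 and 3 lay above every control, and knockout replicate 2 lay between control replicates 1 and 2. Erbb3 had a log2 fold change of 0.64 ± 0.39 (SE; limma adjusted p = 0.971, exact permutation p = 0.2). It was 0.22 ± 0.22 with the array labelled control replicate 3 left out (limma adjusted p = 0.823). The other Erbb3 probe set, 1452482_at, stayed at 40.3 to 43.1, below background in every array. Schwann cells also express Erbb3. Of 15 measured Schwann and nerve markers 8 were above background, and 7, namely Mag, Ngfr, Gjc3, Nefl, Nefm, Nefh and Prph, were not. Their summed intensity was 3229 to 3755 in the knockout arrays and 2518 to 3867 in the control arrays, with 2518 in the array labelled control replicate 3. The part of these cells in the Erbb3 values was not tested.

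Etv5, the ETS-family factor, had the widest range of the members. Its brightest probe set, 1428142_at, read 297.0, 193.6 and 267.8 in the knockout arrays. Controls read 215.4 and 358.8 in replicates 1 and 2, and 53.6 in the array labelled control replicate 3, below background. The log2 fold change was 0.63 ± 0.66 (SE; limma adjusted p = 0.971), and -0.16 ± 0.29 without that array (limma adjusted p = 0.899). With both high-ratio arrays left out, a comparison chosen after seeing the data, it was 0.02 ± 0.27, so its sign was not settled. The next, 1450082_s_at, read 85.5, 64.6 and 97.2 in the knockout arrays, against 92.7, 119.7 and 78.1 in the arrays labelled control replicates 1, 2 and 3. At this probe set the array labelled control replicate 3 was 1.35-fold below the mean of the other controls, against 5.18-fold at the brightest. Its log2 fold change was -0.23 ± 0.25 in the fit of all probe sets, and -0.37 ± 0.23 without that array (limma adjusted p = 0.988 and 0.861). The dimmest Etv5 probe set, 1420998_at, stayed at 44.3 to 49.4, below background throughout.

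**Figure D2:**
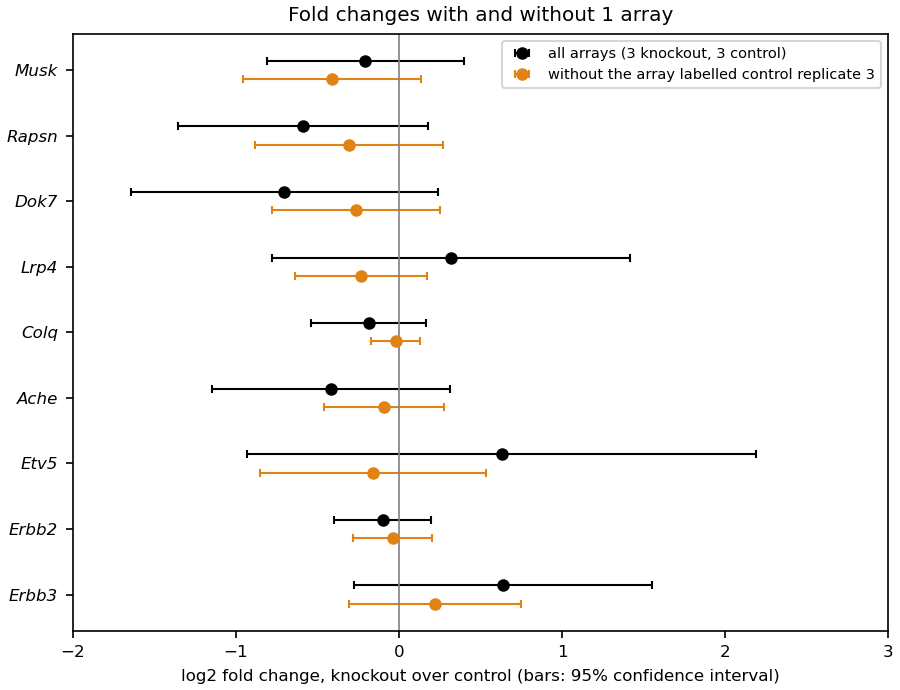
Log2 fold change of knockout over control for the 9 members at their brightest probe sets, with 95% confidence intervals from limma, over all 6 arrays (black) and without the array labelled control replicate 3 (orange). Every interval includes 0, and Lrp4 and Etv5 change sign between the black and the orange points.

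The array labelled control replicate 3 split the members instead of shifting them together. Against the mean of control replicates 1 and 2 it was 5.18-fold lower for Etv5, 3.16-fold lower for Lrp4, 2.38-fold lower for Erbb3 and 1.53-fold lower for Musk. It was 2.48-fold higher for Dok7, 1.97-fold higher for Ache, 1.80-fold higher for Rapsn, 1.41-fold higher for Colq and 1.14-fold higher for Erbb2. These values are from the brightest probe sets. At the dimmer probe set it was 1.465-fold lower for Dok7 and, below background, 1.04-fold higher for Erbb3. It was lower at the other Etv5 probe sets too. More than 1 log2 unit separated it from those controls in 3 members below, where 8.79% of all genes lay as low, and in 1 member above, where 3.19% lay as high. It was the lowest or the highest of the 6 arrays for 8 of the 9 members, against 67.4% of all genes. Knockout replicate 2, the other array with a high Gapdh ratio, deviated from knockout replicates 1 and 3 in the same direction for 8 of the 9, all but Musk. Over all genes 60.8% moved in the same direction in both arrays. Marker lists of other cells differed there too. The median log2 difference of that array from control replicates 1 and 2 was -0.90 for 8 satellite cell markers, -0.88 for 8 adipocyte, -0.64 for 10 macrophage, -0.55 for 10 fibroblast and -0.22 for 10 endothelial markers. It was -0.02 for the fibre markers, which ranged from -0.48 for Ckm to 0.53 for Myh1. It was -0.08 for the Schwann and nerve markers, of which only 8 of 15 were above background, so that median says little. Among those 8, Pmp22, Mbp and Sox10 differed by -0.90, -0.84 and -0.75. Cnp, Mal, Egr2 and S100b differed by -0.36 to -0.08, and Cdh19 went the other way, by 1.498. The part of RNA integrity or of these cells in the members' values was not tested.

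**Figure D3:**
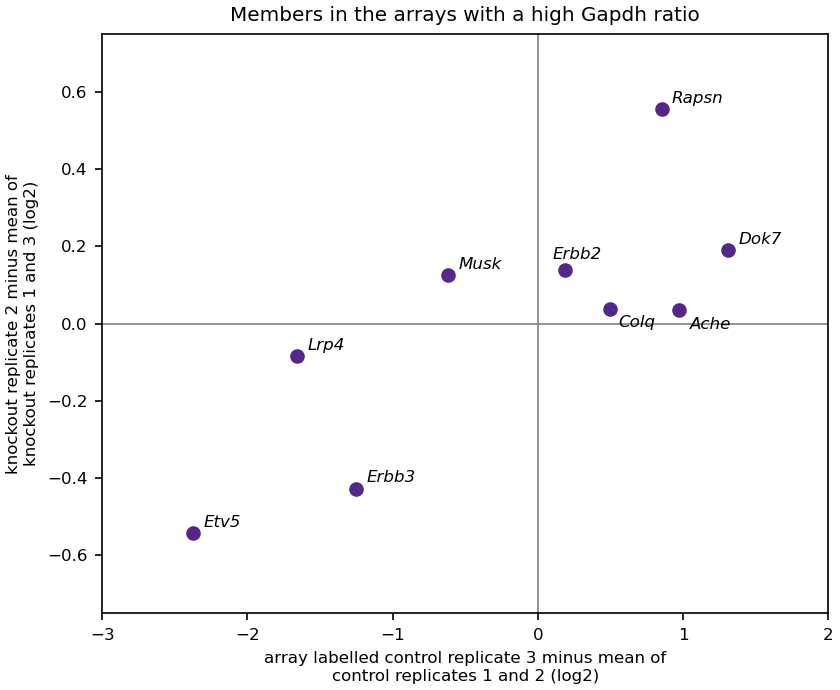
For each member, the deviation of the array labelled control replicate 3 from the mean of control replicates 1 and 2 (x axis, log2) against the deviation of knockout replicate 2 from the mean of knockout replicates 1 and 3 (y axis, log2). The points for 8 members lie below 0 on both axes or above 0 on both, with Musk as the exception.

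The genes nearest in pattern were looked up for Musk and Ache. Nearness was the mean absolute difference between log2 values centred on each gene's own mean over the 6 arrays, so a peak in the same array follows from the choice. For Ache the nearest were Olfr73, 6330415G19Rik and Myo3a, at 0.02, 0.03 and 0.03. Olfr73, an olfactory receptor gene, read 39.8, 39.4 and 39.1 in the knockout arrays and 41.9 and 39.6 in control replicates 1 and 2, all below background, and 82.1 in the array labelled control replicate 3. For Musk the nearest were Slc25a45, Itga4 and Gla, at 0.03, 0.05 and 0.06. Slc25a45, a mitochondrial carrier family gene, read 87.5, 86.1 and 66.8 in the knockout arrays, against 130.1, 87.9 and 68.1 in the arrays labelled control replicates 1, 2 and 3.

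The subunits of the acetylcholine receptor, which rapsyn clusters, mostly had lower means in the knockout, none past the threshold. Of 5 subunit genes 4 had lower means over all 6 arrays, with a median log2 fold change of -0.33. Without the array labelled control replicate 3 all 5 were lower, with a median of -0.16, and limma passed 0 of them in either comparison. Of all genes 53.7% were lower over all arrays, and 52% without that array, or 62.9% of those above background. Without the array labelled control replicate 3 all 8 satellite cell markers, with a median log2 fold change of -0.21, and all 10 macrophage markers, with -0.38, were lower in the knockout. Over all arrays these lists had 5 and 7 lower, with medians of -0.02 and -0.11. The median was 0.33 over all arrays and 0.23 without that array for endothelial markers. It was 0.46 and 0.10 for adipocyte, and 0.09 and -0.12 for fibroblast markers. For Schwann and nerve markers, of which only 8 of 15 were above background, it was 0.02 and 0.0014. The part of these cells in the subunits' values was not tested. Chrna1, the subunit that forms most of the binding site, read 342.2, 296.1 and 255.1 in the knockout arrays, against 446.9, 476.1 and 287.5 in the arrays labelled control replicates 1, 2 and 3. Its log2 fold change was -0.41 ± 0.25 (SE; limma adjusted p = 0.971). Leaving out the array labelled control replicate 3 gave -0.64, with an unadjusted limma p of 0.0074 and an adjusted p of 0.802. In that comparison 3.95% of all genes were lower at p under 0.05, a looser cut than the p of Chrna1. Chrnb1 was the exception over all arrays, at 0.05 ± 0.24, and had -0.13 without the array labelled control replicate 3. The foetal subunit gene Chrng had -0.33 ± 0.19 with that array and -0.16 without it. Chrnd had -0.11 ± 0.06 with it and -0.15 without it, and its groups did not overlap, but it was below background.

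Chrne, the subunit of the adult receptor, was high on the array labelled control replicate 3, as were Ache and Dok7. It read 138.8, 144.4 and 120.0 in the knockout arrays. Controls read 154.2 and 154.5 in replicates 1 and 2, and 351.2 in the array labelled control replicate 3. The groups did not overlap. With Chrnd, 2 of the 5 subunit genes had no overlap with the knockout lower over all arrays, against 5.68% of all genes. Without the array labelled control replicate 3, 3 of 5 had none, against 14.2%. Leaving out an array cannot undo a lack of overlap, so these 2 genes were bound to stay, and only Chrna1 was added. Of the 11545 genes above background, 821 had none with the knockout lower over all arrays, and 2225 without that array. Chrnd, below background, is counted among the subunits in both comparisons. The log2 fold change was -0.60 ± 0.36 with that array and -0.20 without it (SE; limma adjusted p = 0.971 and 0.815). Its promoter, at chr11:70619145-70619444 on the minus strand of GRCm38.p6 in RefSeq's table, is shown because it holds both motifs known from synaptic genes. Capitals mark an E-box that begins 138 bases before the start and an N-box, CCGGAA read on either strand, that begins 76 bases before it, and they do not overlap.
Chrne: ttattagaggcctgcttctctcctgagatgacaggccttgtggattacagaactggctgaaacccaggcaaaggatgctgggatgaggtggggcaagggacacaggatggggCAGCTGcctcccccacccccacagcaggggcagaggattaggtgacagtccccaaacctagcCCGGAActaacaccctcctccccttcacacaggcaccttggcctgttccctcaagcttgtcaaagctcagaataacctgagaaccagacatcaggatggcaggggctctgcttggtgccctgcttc
An N-box was present in 14.9% of all promoters of the table. The table had entries for 5 of the 9 members, 7 promoters in all, of which 5 held an E-box and 0 held an N-box in this window.

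Other genes of the junction did not pass either. The agrin and MuSK pathway list, apart from members, had 10 higher and 10 lower of 20 measured genes and a median log2 fold change of 0.07. With the array labelled control replicate 3 left out it had 11 higher and 9 lower, with a median of 0.03. Agrn, the ligand made by both nerve and muscle, read 255.8, 224.7 and 302.4 in the knockout arrays, against 186.5, 246.7 and 191.4 in the arrays labelled control replicates 1, 2 and 3, with overlap. Its log2 fold change was 0.33 ± 0.22 (SE; limma adjusted p = 0.971). Its value was 0.27 when the array labelled control replicate 3 was left out. Rac1, a GTPase of the actin cytoskeleton, had 0.26 ± 0.12, and 0.17 without that array. Macf1, a linker of microtubules and actin, had 0.52 ± 0.26 over all arrays and 0.28 without it. The groups of Rac1 did not overlap, with the knockout higher. Over all 6 arrays that was so for 2 of the 20 genes, and 0 had no overlap with the knockout lower. Of all 18194 genes 606 had no overlap with the knockout higher and 1034 with it lower. The neuregulin list had 4 higher and 8 lower of 12, with a median of -0.10. That tally turned to 8 higher and 4 lower without the array labelled control replicate 3, with a median of 0.03. Nrg1, the ligand of the ErbB receptors, read 38.6 to 39.3 in knockout arrays and 38.7 to 47.8 in controls, below background. In that list the adaptor gene Grb2 had -0.50 ± 0.26 over all arrays and -0.69 without that array. Gabpa, whose product binds the N-box, had 0.20 ± 0.23 with it and 0.28 without it.

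Synaptic matrix and cytoskeleton genes were 7 higher and 11 lower of 18, with a median log2 fold change of -0.06. There were 9 higher and 9 lower without the array labelled control replicate 3, with a median of 0.02. With both high-ratio arrays left out, a comparison chosen after seeing the data, 12 were higher and 6 lower. In that comparison 55% of all genes were lower, and 60.8% of those above background. Lower there were 7 of the 9 members and all 5 receptor subunits. The agrin and MuSK list had 9 of 20 lower, the neuregulin list 6 of 12 and the list of denervation genes 8 of 11. Col4a4, a basal lamina collagen chain, had -0.75 ± 0.48 with the array labelled control replicate 3 and -0.21 without it. Prima1, which anchors acetylcholinesterase in membranes, had -0.33 ± 0.22 with it and -0.29 without it. Of 11 measured genes responsive to denervation 8 were lower and 3 higher, with a median of -0.11. The counts were 7 lower and 4 higher without the array labelled control replicate 3, with a median of -0.34. Runx1, induced when muscle loses its nerve, read 107.5, 73.1 and 72.8 in the knockout arrays, against 106.8, 103.3 and 319.8 in the arrays labelled control replicates 1, 2 and 3. Its log2 fold change was -0.87 ± 0.47, and -0.34 without the array labelled control replicate 3. Ncam1, an adhesion molecule that spreads over denervated fibres, had 0.64 ± 0.46 with that array and 0.11 without it. Limma passed 0 of these 66 genes, receptor subunits included, over all arrays. At an unadjusted p under 0.05 limma gave 0 over all arrays, and without the array labelled control replicate 3 it gave 4 higher and 7 lower, against 2.04% and 3.95% of all genes.

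**Figure D4:**
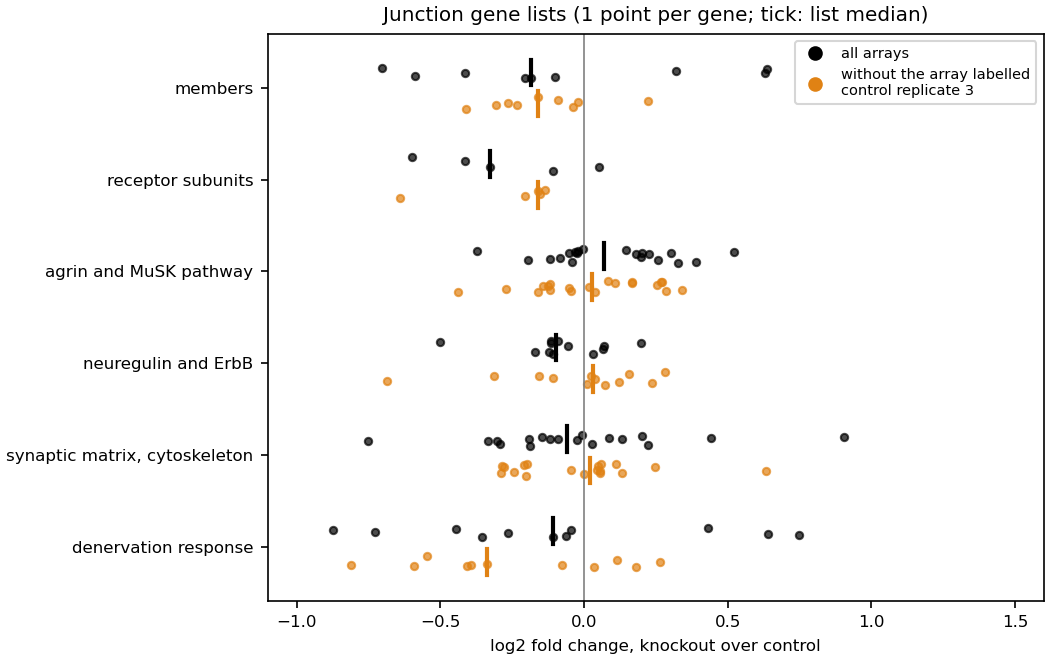
Log2 fold change of knockout over control for each measured gene of the members and the 5 junction lists, over all 6 arrays (black) and without the array labelled control replicate 3 (orange), with a tick at each list's median. The receptor subunits lie at or below -0.13 in orange, and the members other than Erbb3 lie below 0 there.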

How the data were processed

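GCOS and RMA, whose versions no source used here gives, made the deposited values, per the submitters' processing notes. The deposited values were intensities of 45101 probe sets, 1 array per sample, on a linear scale from 37.2 to 16069. Whether the authors converted them back from a log2 scale is not stated, and their upper quartiles, 146 to 182, were unequal. RMA compresses the differences of dim probe sets. Per the labels' protocols, RNA was extracted with Trizol, amplified and labelled with biotin.

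Probe sets with 1 symbol in the platform annotation (34958, with 932 holding several and 9211 unlisted) were used. The RefSeq table of GRCm38.p6 held 34754 of their identifiers and changed 0 symbols. Each gene took its probe set with the highest mean. No pseudocount was added before taking log2. The limma 3.58.1 fits (R 4.3.3, trended eBayes, no term besides group, two-sided, threshold 0.05) ran once over 18194 genes and once over all probe sets. The script was tested on simulated data. The number of arrays limits the precision.

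Samples were not paired by replicate number in the main fit, and the values could not show whether the numbers pair them. Alternatives were quantile normalization, median centring, other variance models, array weights, a filter on dim genes, the mean of probe sets, the replicate block and leaving out each array. The members and lists were chosen with earlier results of these data known. Besides the members, the rule named Agrn, Nrg1, the receptor subunits, the 2 genes with the smallest p above background in each other list, and the 3 genes nearest in pattern to Musk and to Ache.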

Additional observations from a re-analysis of the deposited data

How the results depend on the processing

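Under 15 alternatives 0 members and 0 genes passed, and the lowest adjusted p of any gene was 0.0579, with array weights. Of 134 member values recomputed, 129 kept their direction. The other variance models, the replicate block and the filter on dim genes leave a fold change as it was, so no direction could turn there. The mean of probe sets likewise could not turn a member with a single probe set. The log2 fold change of Lrp4, 0.32 over all arrays, was -0.13 with array weights, -0.21 with both high-ratio arrays left out, and -0.23 to 0.68 when single arrays were left out. Leaving out single arrays gave -0.16 to 1.21 for Etv5 and -0.41 to 0.057 for Musk. The low ends for Lrp4 and Etv5 came without the array labelled control replicate 3, and the high end for Musk without control replicate 1. The cause was not tested. Some values kept their sign but not their size. With the mean of probe sets the log2 fold change of Etv5 was 0.14, against 0.63 at the brightest probe set, that of Erbb3 was 0.30 against 0.64 and that of Dok7 was -0.42 against -0.70. Array weights gave 0.10 for Etv5, 0.38 for Erbb3, -0.36 for Dok7, -0.13 for Ache and -0.02 for Colq. They gave Rapsn -0.46 and Musk -0.48, with unadjusted limma p of 0.0398 and 0.0480 and adjusted p of 0.468 and 0.488. The 95% intervals of both genes, -0.89 to -0.03 and -0.96 to -0.0056, left out 0, and 6.74% of all genes were lower at p under 0.05 in that fit. With the replicate block 0 genes, 0 members and 0 probe sets passed. The deviations of same-numbered arrays from their group means correlated at 0.194, -0.146 and -0.114 for numbers 1 to 3. The array labelled control replicate 3 enters the control mean and so the deviations of every control. These correlations therefore cannot show whether the numbers pair the arrays. Median levels near background limit Musk, Colq and Erbb2.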
